A study of Mus musculus with 2 samples.

Results

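The genes described here are those of the mitochondrial respiratory chain and ATP synthase, chosen by symbol alone: the numbered Ndufa, Ndufb, Ndufc, Ndufs and Ndufv genes, Sdha to Sdhd, the Uqcr genes, the lettered Cox4 to Cox8 subunits, the Atp5 genes, and the mitochondrially encoded mt-Nd, mt-Co, mt-Cytb and mt-Atp genes. The rule took 98 of the 33083 genes in the count matrices, of which 85 lie in the nucleus and 13 in the mitochondrial genome, and no measured value entered it. Of the nuclear genes, 37 belonged to complex I, 4 to complex II, 8 to complex III, 19 to complex IV and 17 to complex V. The measurements were unique molecular identifier (UMI) counts, which count captured RNA molecules, from 10x Genomics single-cell RNA sequencing of mouse colon dissociated with trypsin and DNase. There was 1 library from APP/PS1-21 mice, a model of Alzheimer's disease (AD) whose transgenes, mutant human amyloid precursor protein and presenilin 1, are driven by the neuronal Thy1 promoter, and 1 library from wild-type (WT) mice. The study asked about tuft cells in the gut. The labels used here give neither the age, the sex nor the number of mice behind a library. With 1 library per genotype, genotype and library cannot be told apart, no difference between AD and WT has a replicate check, and no test between them was made. Intervals are 95% intervals, exact for a level and conditional on the sum of counts for a ratio, and they cover counting error only.

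The respiratory chain passes electrons from NADH and succinate to oxygen through complexes I to IV and uses the proton gradient so built to make ATP in complex V. Complex II is encoded wholly in the nucleus, whereas the other complexes join nuclear subunits made on cytosolic ribosomes with a core made inside the organelle. Surface colonocytes are known for burning butyrate from bacterial fermentation, which feeds this chain. A few subunits exist as alternative copies used by particular tissues, such as the muscle-type Cox7a1 beside the widely used Cox7a2, and the testis-type Cox6b2 beside Cox6b1. Ndufa4, once placed in complex I, is a subunit of complex IV, and Ndufa4l2 is its hypoxia-inducible paralogue.

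The promoters of the genes on which the results turn are shown as the 150 bases that end just before the RefSeq start of each gene, on the gene's own strand, from RefSeq on GRCm38.p6. Cox7a1 and Cox6b2 are shown beside their widely used partners Cox7a2 and Cox6b1 because their levels depended strongly on the cell class, and Ndufa4 and Ndufb6 because they were the lowest members in the top against the bottom mitochondrial band over pooled epithelial cells, Ndufb6 also being the lowest in AD over WT. The windows lie at chr7:30184021-30184170 (plus strand) for Cox7a1, chr9:79759854-79760003 (minus strand) for Cox7a2, chr7:4753095-4753244 (minus strand) for Cox6b2, chr7:30626115-30626264 (minus strand) for Cox6b1, chr6:11907451-11907600 (minus strand) for Ndufa4 and chr4:40279422-40279571 (minus strand) for Ndufb6.
Cox7a1: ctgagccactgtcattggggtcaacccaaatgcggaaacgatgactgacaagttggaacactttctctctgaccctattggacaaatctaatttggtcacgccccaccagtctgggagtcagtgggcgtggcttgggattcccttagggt
Cox7a2: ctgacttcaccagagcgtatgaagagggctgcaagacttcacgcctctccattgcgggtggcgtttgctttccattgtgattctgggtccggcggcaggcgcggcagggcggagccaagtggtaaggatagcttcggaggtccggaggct
Cox6b2: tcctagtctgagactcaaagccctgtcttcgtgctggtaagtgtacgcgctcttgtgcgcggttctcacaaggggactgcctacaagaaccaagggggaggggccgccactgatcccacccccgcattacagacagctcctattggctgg
Cox6b1: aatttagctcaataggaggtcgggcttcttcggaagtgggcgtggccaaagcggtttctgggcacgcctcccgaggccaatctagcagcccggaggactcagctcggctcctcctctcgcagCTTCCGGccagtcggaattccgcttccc
Ndufa4: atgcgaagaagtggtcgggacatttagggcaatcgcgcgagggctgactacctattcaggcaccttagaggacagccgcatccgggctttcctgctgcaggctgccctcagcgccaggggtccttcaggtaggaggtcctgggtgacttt
Ndufb6: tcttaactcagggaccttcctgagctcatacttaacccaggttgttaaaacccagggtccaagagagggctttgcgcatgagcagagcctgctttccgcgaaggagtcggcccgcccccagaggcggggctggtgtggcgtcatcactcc
Capitals mark CTTCCGG, the reverse complement of the ETS and GABP core CCGGAAG, which was the one motif searched that fell inside a printed window. Over the full RefSeq windows of 250 bases before to 50 bases after the start, 69 of the 85 nuclear members had at least 1 promoter, in 74 windows. On either strand, the nuclear respiratory factor (NRF1) core, GCGC and again GCGC after any 2 bases, was in 19 of the 74 windows (25.7%), against 6.23% of all 32851 windows of that table. The core CCGGAAG was in 17 (23.0%), against 8.86% of all. The YY1 core ATGGCGGC was in 7 (9.46%), against 2.24% of all, and the oestrogen-related receptor site AAGGTCA was in 8 (10.8%), against 4.72% of all. These are matches of letters and were not tied to binding data.

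Cells with at least 500 UMIs, 200 genes and 300 non-mitochondrial UMIs were kept, 6642 in AD and 4022 in WT. Before that filter the files held 6675 barcodes and 38731915 UMIs in AD, and 4146 barcodes and 26898149 UMIs in WT, and 7 barcodes occurred in both libraries. The WT library stood apart in its mitochondrial share: the median cell had 12.9% mitochondrial UMIs in AD and 33.9% in WT, and cells over 25% made up 29.4% in AD and 61.5% in WT. For that reason levels are given per 10000 non-mitochondrial UMIs, first in cells at up to 25% and then by band of 0 to 10, 10 to 25, 25 to 50 and over 50%. Cells were clustered without the members, the other mitochondrial genes and the ribosomal protein genes, and clusters were named by marker genes, so a class is a rebuilt "like" class. Clusters that met no naming rule held 16.0% of AD and 8.63% of WT cells and are left out.

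By class, the nuclear set was highest in colonocyte-like cells and lowest in B-like cells. In cells at up to 25% its level per 10000 non-mitochondrial UMIs was 637 in AD and 681 in WT colonocyte-like cells, 531 in AD and 589 in WT other epithelial cells (epithelial clusters that fitted no finer name), and 451 in AD and 492 in WT crypt-like cells. The lead was not particular to the colonocyte-like class. Within the other epithelial cells, a cluster of 231 AD and 64 WT cells had 636 in AD and 708 in WT. Another there, of 280 AD and 69 WT cells, had 441 in AD and 482 in WT. Secretory cells were lower, at 287 in AD and 351 in WT goblet-like cells and 191 in AD and 236 in WT enteroendocrine-like cells. Outside the epithelium, smooth muscle and pericyte-like cells had 222 in AD and 265 in WT, endothelial-like cells 166 in AD and 175 in WT, and fibroblast-like cells 148 in AD and 158 in WT. Small classes were the smooth muscle and pericyte-like, with 61 AD and 25 WT cells, and the crypt-like, with 44 AD and 99 WT cells. Plasma-like cells had 133 in AD and 141 in WT, macrophage and monocyte-like cells 127 in AD and 144 in WT, lymphocyte-like cells 127 in AD and 136 in WT, and B-like cells 99.98 in AD and 91.5 in WT. The order of the classes differed between the libraries only among plasma-like, macrophage and monocyte-like and lymphocyte-like cells. Of 78 nuclear members with at least 100 UMIs over 12 classes, the class with the highest level was colonocyte-like for 54 in AD and 50 in WT and some epithelial class for 73 in AD and 75 in WT, and the lowest was B-like for 45 in AD and 57 in WT. No share over all genes stands beside these counts, so they are not read as particular to the members.

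**Figure D1:**
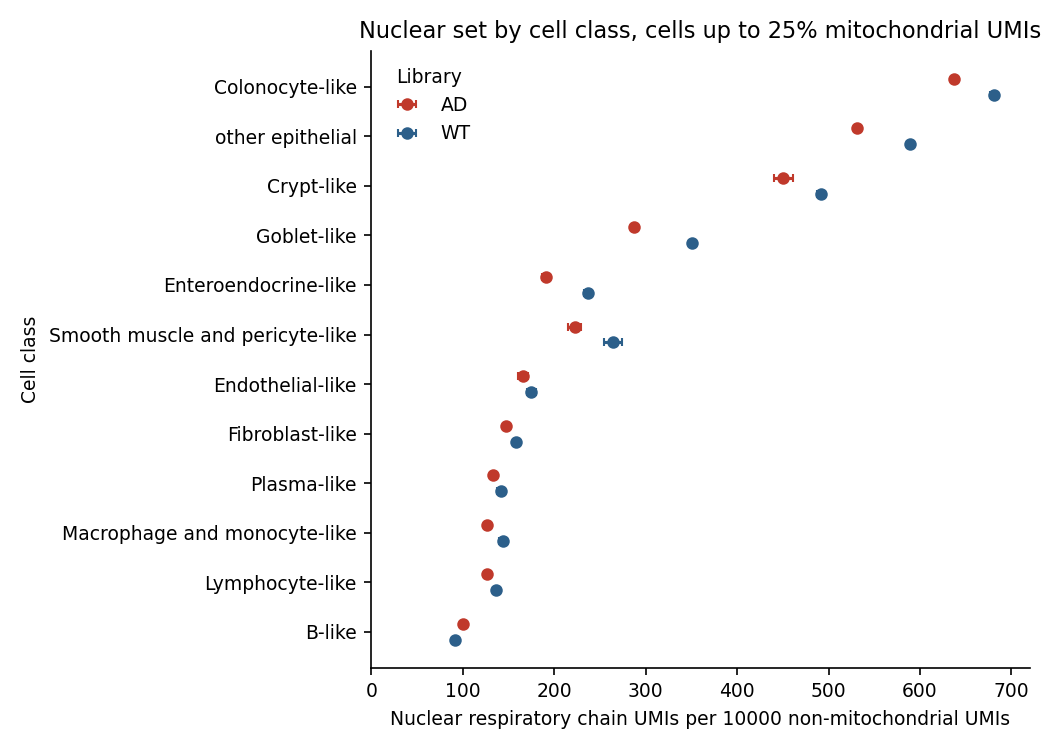
Level of the 85 nuclear respiratory chain genes per 10000 non-mitochondrial UMIs in each cell class at up to 25% mitochondrial UMIs, AD and WT libraries, with 95% counting intervals. Among classes, colonocyte-like cells lead at 637 in AD and 681 in WT, B-like cells are lowest at 99.98 in AD and 91.5 in WT, and B-like cells are the one class where AD lies above WT. A cluster within the other epithelial cells was as high, at 636 in AD and 708 in WT.

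A few complex IV subunits had their own cell classes. Ndufa4l2 had 164 CPM (100 times the count per 10000 non-mitochondrial UMIs) in AD and 356 CPM in WT smooth muscle and pericyte-like cells, from 25 UMIs in AD and 38 in WT. It had 115 CPM in AD and 50.5 CPM in WT endothelial-like cells. At up to 25% it had no UMI in any of the 5 epithelial classes of either library, which allows up to 0.198 CPM in AD and 0.423 CPM in WT, whereas Ndufa4 was present in all 12 classes. In WT colonocyte-like cells over 50% Ndufa4l2 had 1 UMI. Cox7a1 had 310 CPM in AD and 315 CPM in WT colonocyte-like cells, 141 CPM in AD and 115 CPM in WT other epithelial cells, and 133 CPM in AD and 60.1 CPM in WT crypt-like cells. It was far lower in goblet-like cells, at 43.6 CPM in AD and 53.4 CPM in WT, and was at 2.77 CPM in AD and 2.39 CPM in WT plasma-like cells. WT plasma-like cells held 417729 non-mitochondrial UMIs, so Cox7a1 rests on few UMIs there. Its partner Cox7a2 was found in every class, with 2210.0 CPM in AD and 2187 CPM in WT colonocyte-like cells and 199 CPM in AD and 185 CPM in WT B-like cells.

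Cox6b2 was highest in stromal cells. It had 53.4 CPM in AD and 104 CPM in WT fibroblast-like cells and 46.0 CPM in AD and 28.1 CPM in WT smooth muscle and pericyte-like cells, against 0.591 CPM in AD and 1.30 CPM in WT colonocyte-like cells. The smooth muscle and pericyte-like class held 152058 non-mitochondrial UMIs in AD and 106705 in WT, so its Cox6b2 levels rest on few UMIs. Cox6b1 ran the other way, with 1942 CPM in AD and 1960 CPM in WT colonocyte-like cells and 333 CPM in AD and 334 CPM in WT fibroblast-like cells. Cox8b, known from heart and brown fat, was counted in fibroblast-like cells with 8 UMIs in AD and 19 in WT, and 9 UMIs in AD goblet-like cells. Cox8a was present throughout, and outside the epithelium it was highest in smooth muscle and pericyte-like cells at 1177 CPM in AD and 1537 CPM in WT. Cox6a2 and Ndufa13 had no UMI in either library and Cox8c had 1 UMI over the 12 classes. Cox6a1, partner of Cox6a2, had 2833 CPM in AD and 2567 CPM in WT colonocyte-like cells. Ndufa13 is a complex I gene, and whether its reads were missed by the annotation or the counting was not tested. Its lack of UMIs is therefore not read as absence of its RNA.

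Among the other complexes, Sdhd, a membrane anchor of complex II, had 139 CPM in AD and 216 CPM in WT colonocyte-like cells, against 22.6 CPM in AD and 7.69 CPM in WT B-like cells. WT B-like cells held 519945 non-mitochondrial UMIs, so Sdhd rests on few UMIs there. Uqcrb, a small subunit of complex III, had 1606 CPM in AD and 1563 CPM in WT colonocyte-like cells, against 116 CPM in AD and 102 CPM in WT B-like cells. Uqcr10, of the same complex, had 1261 CPM in AD and 1508 CPM in WT colonocyte-like cells, against 124 CPM in AD and 100.01 CPM in WT B-like cells. Ndufb9, of complex I, had 732 CPM in AD and 771 CPM in WT colonocyte-like cells, against 72.2 CPM in AD and 50.0 CPM in WT B-like cells. Cox5b-ps, which the annotation used here lists by its gene ID as the protein-coding Gm11273, had 8.87 CPM in AD and 9.72 CPM in WT colonocyte-like cells. Its reads may not be separable from those of the complex IV gene Cox5b, for which it is named. The genes Atp5g1, Atp5g2 and Atp5g3 encode the same mature c-ring protein of ATP synthase. Atp5g1 had 977 CPM in AD and 1395 CPM in WT colonocyte-like cells, and 134 CPM in AD and 148 CPM in WT B-like cells. Atp5g2 varied less between those classes, with 580 CPM in AD and 588 CPM in WT colonocyte-like cells and 275 CPM in AD and 242 CPM in WT B-like cells. Atp5g2 shares exon sequence on its own strand with another annotated gene, as do Ndufb2, Ndufb8, Ndufb9 and Atp5o, so their counts are uncertain.

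**Figure D2:**
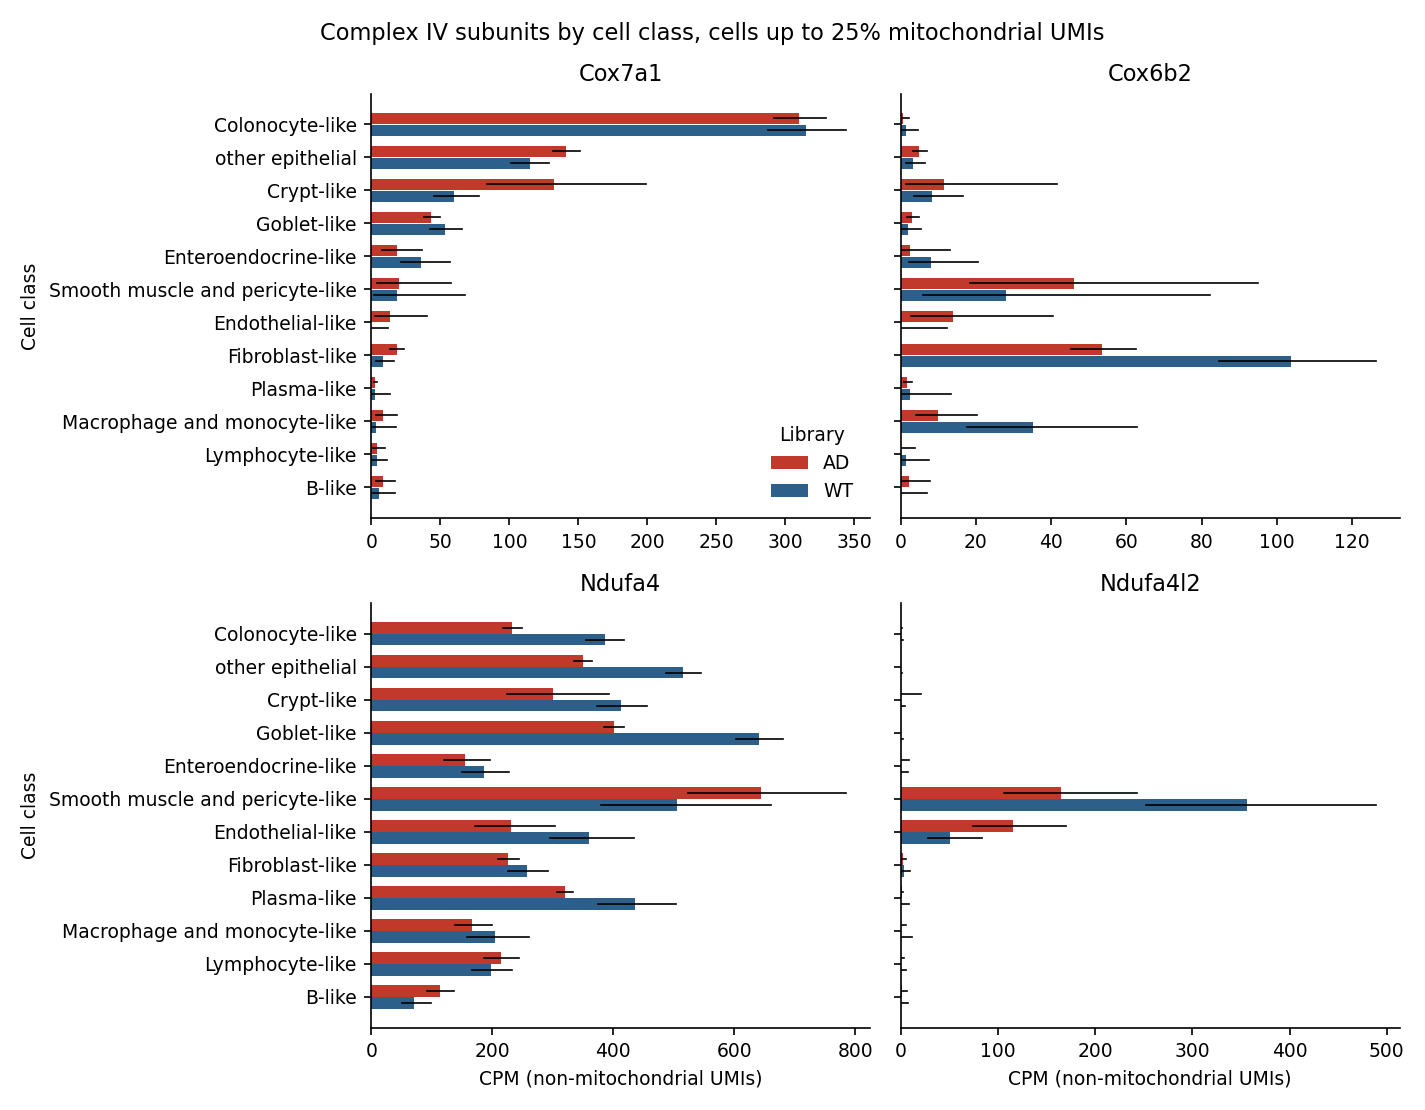
Level in CPM of Cox7a1, Cox6b2, Ndufa4 and Ndufa4l2 by cell class at up to 25% mitochondrial UMIs in the AD and WT libraries, with 95% counting intervals and an axis of its own for each gene. Ndufa4l2 is highest in smooth muscle and pericyte-like cells and at 0 in the epithelial classes, Cox7a1 is highest in colonocyte-like cells, and Cox6b2 is highest in fibroblast-like cells at 53.4 CPM in AD and 104 CPM in WT.

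Between the libraries, the nuclear set was lower in AD in every epithelial class at up to 25%. Pooled over 1363 AD and 520 WT epithelial cells the level was 458 (457 to 459) in AD and 514 (512 to 516) in WT per 10000, a ratio of 0.892 (0.888 to 0.896). Of the 85 nuclear members 76 had the 100 UMIs asked of a gene, and 66 of these were below 1 in AD over WT, 86.8% of members against 58.6% of all 10216 genes so filtered. Their median log2 ratio was -0.25, against -0.07 over all genes. Past 1.5-fold, 4 members were lower in AD, where 9.81% of all genes were lower, and 0 were higher, where 3.92% were. The offset was broad and small, and the share past the fold was not above that of genes in general.

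The pooled epithelial difference depended on how cells were weighed. Cells with over 4 times the median UMIs of their class numbered 79 in AD and 113 in WT and held 16.9% of the AD and 51.5% of the WT non-mitochondrial UMIs. Without them the log2 ratio of the set was -0.05 in place of -0.16, and as a mean over cells it was 0.01. In colonocyte-like cells such cells held 15.9% of the AD and 76.8% of the WT UMIs, and the mean over cells there was 0.03 in place of -0.09. The colonocyte-like class held 3 clusters with different levels. The first, with 228 AD and 88 WT cells, had 616 per 10000 in AD and 690 in WT, and the second, with 69 AD and 13 WT cells, had 743 in AD and 670 in WT. The third had 0 AD cells and 11 WT cells, at 203 per 10000. Ribosomal protein genes moved the same way, with 1383 per 10000 in AD and 1597 in WT epithelial cells, as did Malat1, a nuclear-retained RNA, with 65.9 in AD and 92.1 in WT. The mitochondrial share of UMIs was 13.1% in AD and 15.3% in WT. The part of depth, ribosomal genes and mitochondrial share in the difference was not tested.

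In goblet-like cells the difference kept its direction under each of those weightings. The set had 287 (286 to 289) per 10000 in 447 AD cells and 351 (348 to 354) in 105 WT cells, a ratio of 0.818 (0.811 to 0.826). The share of the set in single cells had a median of 2.78% with quartiles of 2.27 and 3.30% in AD, and a median of 3.43% with quartiles of 2.85 and 4.02% in WT, so the ranges of the middle cells overlapped. The log2 ratio was -0.29 and lay between -0.30 and -0.20 over 12 alternative settings, although here too the cells over 4 times the median held 23.1% of AD and 54.7% of WT UMIs. Of 74 members tested 71 were below 1, with a median log2 ratio of -0.32. The median over 6924 genes was -0.09, so most genes in these cells were below 1 as well. Past 1.5-fold 10 members were lower in AD, where 7.13% of all genes were lower, and 0 were higher, where 4.39% were. Ribosomal protein genes differed less in goblet-like cells, at 1444 per 10000 in AD and 1506 in WT, and the mitochondrial share was 9.04% in AD and 11.7% in WT.

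Enteroendocrine-like cells, 61 in AD and 59 in WT, had 13 of 61 tested members lower past 1.5-fold, where 8.19% of all genes were lower, and 0 higher, where 9.06% were. The bands differed, which was not tested: at 0 to 10% mitochondrial UMIs the set was at 181 in AD and 183 in WT, and at 10 to 25% it was at 205 in AD and 275 in WT, where the median cell had 1537 non-mitochondrial UMIs in AD and 6320 in WT. Colonocyte-like cells had 6 of 74 members lower, where 7.34% of all genes were lower, and 0 higher, where 6.64% were. The other epithelial cells had 4 of 74 lower, where 5.84% were lower, and 0 higher, where 6.57% were.

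By complex, the pooled epithelial level per 10000 was 103 in AD and 121 in WT for complex I, with 34 of 35 tested members below 1 and a ratio of 0.850 (0.843 to 0.857). Complex V, the ATP synthase, had 143 in AD and 164 in WT, with all 16 tested members below 1 and a ratio of 0.873 (0.867 to 0.880). Complex II, succinate dehydrogenase, had 10.9 in AD and 12.2 in WT, with 2 of 4 members below 1, and an interval of the ratio of 0.877 to 0.924. Complex III had 60.5 in AD and 65.6 in WT with 5 of 8 below 1 and a ratio of 0.922. Complex IV had 141 in AD and 151 in WT with 9 of 13 below 1 and a ratio of 0.932. In colonocyte-like cells the ratios for complexes I to V were 0.883, 0.979, 0.984, 0.986 and 0.901, and in goblet-like cells they were 0.810, 0.843, 0.841, 0.809 and 0.823. The counts below 1 in pooled epithelial cells are read beside the share of all genes below 1, given above. They depended on the setting. Without cells over 4 times the class median, Atp5a1, Atp5g3 and Atp5pb of complex V were at log2 0.14, 0.12 and 0.09. The other tested complex V members stayed below 0. In complex I, Ndufb3, Ndufb5, Ndufa7 and Ndufa1 turned above 0, at 0.05, 0.06, 0.04 and 0.09, and most others stayed below. Differences between complexes were not tested.

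The members with the lowest ratios in epithelial cells were subunits of several complexes. Ndufb6, an accessory subunit of complex I, lies at chr4:40270591-40279421 (minus strand, GRCm38) and had 79.9 (75.4 to 84.5) CPM in AD and 146 (138 to 155) CPM in WT, a log2 ratio of -0.87 (-0.99 to -0.75). It was lower in AD in all 12 classes, for example 51.5 CPM in AD and 98.4 CPM in WT goblet-like cells, 99.9 CPM in AD and 172 CPM in WT colonocyte-like cells, and 35.9 CPM in AD and 79.0 CPM in WT plasma-like cells. Some of these directions rest on few UMIs. Ndufb6 had 9 UMIs in AD and 14 in WT endothelial-like cells, a log2 ratio of -0.15 (-1.57 to 1.13). In B-like cells it had 13 UMIs in AD and 11 in WT, at -0.61 (-1.87 to 0.71). A gene on the other strand, Smim27, overlaps its exons, and whether counting used the strand is not given in the sources used here. Ndufs5, another accessory subunit of complex I at chr4:123712710-123718202 (minus strand), had 61.5 CPM in AD and 106 CPM in WT (log2 -0.79), and no annotated gene overlaps its exons.

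Cox5a, a nuclear subunit of complex IV at chr9:57521274-57532426 (plus strand), had 160 CPM in AD and 252 CPM in WT epithelial cells (log2 -0.65). In plasma-like cells it had 35.6 CPM in AD and 81.4 CPM in WT. Uqcrc2, a core protein of complex III at chr7:120635176-120659524 (plus strand), had 74.9 CPM in AD and 114 CPM in WT (log2 -0.60). Ndufs8, an iron-sulphur subunit of complex I, had 103 CPM in AD and 155 CPM in WT (log2 -0.58). Over 7 alternative settings Ndufb6 lay between -1.06 and -0.67, Ndufs5 between -0.82 and -0.55, Cox5a between -0.83 and -0.55, Uqcrc2 between -0.88 and -0.39, and Ndufs8 between -0.69 and -0.25, so each stayed below 0 under all of them. Ndufs8 was just short of 1.5-fold, and Ndufs5, Cox5a and Uqcrc2 were short of it under at least 1 alternative.

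At the other end, Cox7a2l had 308 (299 to 317) CPM in AD and 259 (247 to 271) CPM in WT epithelial cells, a log2 ratio of 0.25 (0.17 to 0.33). Cox7a2l, at chr17:83501918-83517330 (minus strand), encodes a factor that joins complexes III and IV into supercomplexes. It was higher in AD in 10 of the 12 classes, including 229 CPM in AD and 178 CPM in WT goblet-like cells, 310 CPM in AD and 240 CPM in WT colonocyte-like cells, and 268 CPM in AD and 175 CPM in WT B-like cells. Uqcrh, the hinge protein of complex III, had 1590.2 CPM in AD and 1396 CPM in WT, a log2 ratio of 0.19, between 0.10 and 0.28 over the alternatives. Ndufa6 (log2 0.14), Cox7a1 (0.11) and Uqcrfs1, the Rieske iron-sulphur protein (0.10), completed the 5 highest. Of these Ndufa6 and Cox7a1 turned below 0 under an alternative, down to -0.01 and -0.20. The pooled ratios mix classes that the libraries held in unlike shares. In goblet-like, colonocyte-like and other epithelial cells Cox7a1 was at -0.30, -0.02 and 0.30. Uqcrfs1 was at -0.03, 0.28 and -0.05 in the same classes.

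The members with the most UMIs in each complex differed unevenly. In epithelial cells the log2 ratios were -0.08 for Cox7c, 0.05 for Cox6c and -0.04 for Cox8a in complex IV, -0.01 for Atp5a1, -0.22 for Atp5b and -0.05 for Atp5g3 in complex V, and 0.04 for Sdha, -0.31 for Sdhb and 0.00 for Sdhc in complex II. Complex III was uneven, with 0.19 for Uqcrh against -0.35 for Uqcr10 and -0.26 for Uqcrq, and complex I had -0.16 for Ndufc1 and -0.28 for the row named Ndufb1, whose gene ID the annotation used here lists as Ndufb1-ps, a long non-coding RNA. Between the c-ring genes the difference was unequal too, with -0.49 for Atp5g1, -0.15 for Atp5g2 and -0.05 for Atp5g3.

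**Figure D3:**
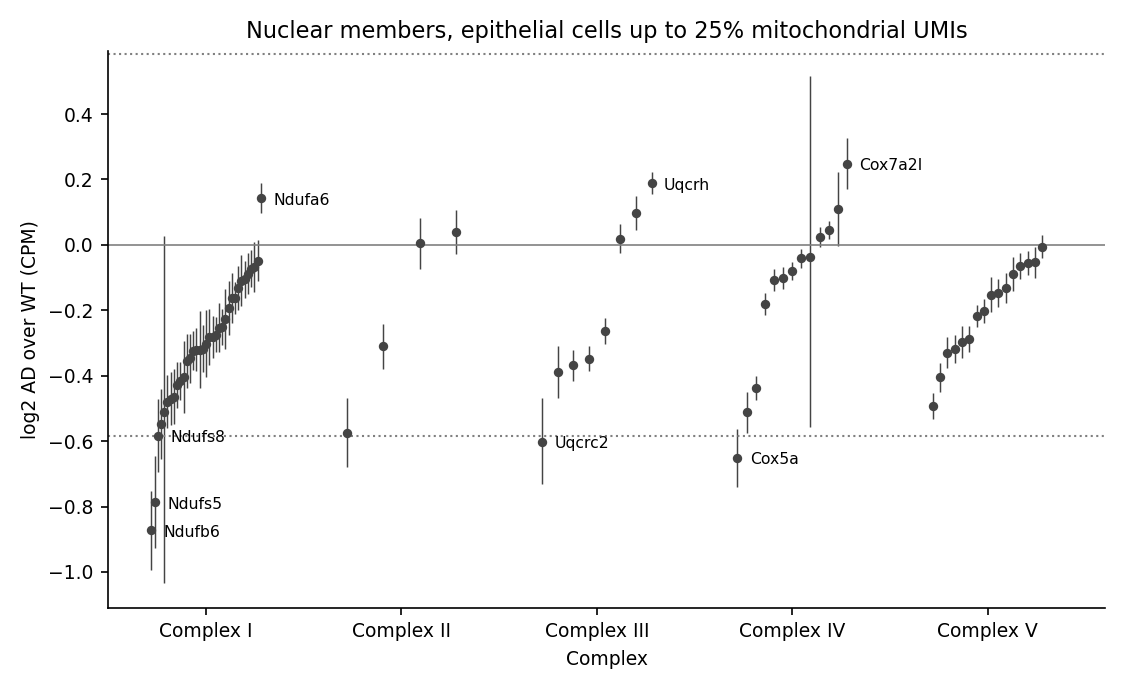
Log2 ratio of AD over WT for each nuclear member with at least 100 UMIs in epithelial cells at up to 25% mitochondrial UMIs, by complex, with 95% counting intervals as bars, a solid line at 0 and dotted lines at 1.5-fold. In this setting all 16 complex V members and 34 of 35 complex I members lie below 0, as do most genes tested in these cells. Atp5a1 is close to 0, at -0.01. The members run from Ndufb6 at -0.87 to Cox7a2l at 0.25.

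Outside the epithelium the differences were mixed. B-like cells, 470 in AD and 225 in WT, had 3 of 45 tested members higher past 1.5-fold, where 7.64% of all genes were higher, and 0 lower, where 5.53% were. The set ratio there was 1.09 (1.06 to 1.13), with Atp5j2, a subunit of the membrane part of ATP synthase, at 186 CPM in AD and 115 CPM in WT (log2 0.68), and Ndufa4 at 113 CPM in AD and 71.2 CPM in WT (0.66). Ndufa4 ran the opposite way in goblet-like cells, at 401 CPM in AD and 641 CPM in WT, and in colonocyte-like cells, at 233 CPM in AD and 386 CPM in WT. Plasma-like cells, 922 in AD and 51 in WT, had 6 of 73 members lower, where 11.6% were lower, and 1 higher, where 14.8% were. Lymphocyte-like cells had 2 of 62 lower, where 5.6% were, and 1 higher, where 10.6% were. The higher one was Uqcrc1, a core protein of complex III, with 84.4 CPM in AD and 37.3 CPM in WT (log2 1.16). Macrophage and monocyte-like cells had 3 of 46 lower, where 9.26% were, and 2 higher, where 14% were, with Atp5j, a stalk subunit of ATP synthase, at 153 CPM in AD and 332 CPM in WT (-1.12) and Sdha, the flavoprotein of complex II, at 156 CPM in AD and 89.5 CPM in WT (0.78).

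In fibroblast-like cells, 821 in AD and 240 in WT, 4 of 73 members were lower, where 4.77% were, led by Cox6b2 (log2 -0.96) and Ndufs5 (-0.76), and 0 higher, where 6.1% were, with Uqcrfs1 the highest at 0.43. Endothelial-like cells had 4 of 37 lower, where 9.79% were, led by Uqcr11, a small subunit of complex III, at 194 CPM in AD and 370 CPM in WT (-0.92), and 0 higher, where 5.77% were. Among enteroendocrine-like cells Uqcrc1 had 75.1 CPM in AD and 168 CPM in WT (-1.15) and Ndufa3 of complex I had 136 CPM in AD and 275 CPM in WT (-1.01), while Ndufa6 of complex I had 467 CPM in AD and 315 CPM in WT (0.57). Tuft-like cells were too few at up to 25%. At 25 to 50% the set had 109 (96.2 to 124) per 10000 in 23 AD cells and 200 (193 to 207) in 95 WT cells, and over 50% it had 140 in 22 WT cells.

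Related lists in epithelial cells, chosen with earlier results of these data known, differed by list. They are read beside the shares over all genes tested in these cells, of which 58.6% were below 1 and 9.81% lower past 1.5-fold. Of 73 tested genes of the mitochondrial ribosome, 72 were below 1 and 10 were lower past 1.5-fold, with a median of -0.37 and a summed level of 50.7 per 10000 in AD and 63.3 in WT. Mrps15, of the small subunit, had 38.6 CPM in AD and 66.8 CPM in WT. Of 41 assembly factors 36 were below 1 and 3 past the fold (median -0.21), among them Uqcc2 for complex III at -0.61, while Ttc19 for complex III was at 0.24. All 17 tested genes of mitochondrial DNA copying and RNA handling were below 1, with Pnpt1, which takes part in RNA handling in the organelle, at -0.90 and Ssbp1, its single-strand DNA binding protein, at -0.73 (median -0.24). Of 5 chain proteins with names outside the rule all were below 1, from Atpif1, the ATP synthase inhibitor (-0.53), and Cycs, cytochrome c, with 541 CPM in AD and 737 CPM in WT (-0.45), to Cox4i1 (-0.04).

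The citric acid cycle, which feeds the chain, had 8 of 15 genes below 1 with a median of 0.00 and none past the fold. Ogdh was at 0.17 and Fh1 at -0.29. Biogenesis regulators had 6 of 10 below 1, with Esrrg at 0.45, Ppargc1a at 0.17 and Nrf1 at -0.30. Glycolysis had 11 of 16 below 1 and 2 lower past the fold, Gapdh with 410 CPM in AD and 645 CPM in WT among them. Of 13 genes of mitochondrial stress 4 were lower past the fold, including the matrix chaperones Hspe1 (-0.62) and Hspd1 (-0.66) and the serine synthesis enzyme Phgdh (-1.28), and Atf4, a regulator of that response, was at 0.19. Mitophagy and dynamics had 3 of 9 below 1 (median 0.11). Beside these, cytosolic ribosomal genes had 69 of 75 below 1 (median -0.23), genes induced by dissociation 6 of 19 (median 0.21), and haemoglobin genes 3 of 3 (median -1.68), and their part in the members' differences was not tested.

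Across mitochondrial bands the direction of the nuclear set depended on the class. In both libraries the highest filled band was lower than the lowest in colonocyte-like, crypt-like, goblet-like and other epithelial cells. It was higher in enteroendocrine-like, fibroblast-like, lymphocyte-like and B-like cells of both, and in AD plasma-like cells. In macrophage and monocyte-like cells the libraries differed. In colonocyte-like cells of AD the set was at 634, 551 and 379 per 10000 non-mitochondrial UMIs at 10 to 25, 25 to 50 and over 50%, and in WT at 676, 598 and 330. Over 50% against 10 to 25% the ratio was 0.599 (0.580 to 0.617) in AD and 0.488 (0.483 to 0.494) in WT. Of 74 members 48 in AD and 67 in WT were lower past 1.5-fold in the top band, where 25% of AD and 32.1% of WT genes were. None were higher past that fold, where 22.7% of AD and 27.3% of WT genes were. The top band was shallow: the median cell had 10038, 2866 and 2229 non-mitochondrial UMIs over these bands in AD and 10279, 2081 and 1946 in WT, while Malat1 was at 80.4, 226 and 465 per 10000 in AD and at 92.4, 314 and 679 in WT. A cluster with 14 AD and 668 WT cells and a median of 50.1% mitochondrial UMIs held most of the WT top band. Without it the log2 ratio was -0.65 in AD and -0.42 in WT, in place of -0.74 in AD and -1.03 in WT.

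In goblet-like cells the set was at 286, 291 and 211 in AD and at 335, 363 and 274 in WT at 0 to 10, 10 to 25 and 25 to 50%, and 25 of 74 members in AD and 19 of 66 in WT were lower past 1.5-fold in the top band, where 17.1% of AD and 28.4% of WT genes were. In other epithelial cells of AD it was at 494, 536, 526 and 362 over the 4 bands and in WT at 593, 613 and 462 over the top 3. Of its members 26 of 69 in AD and 25 of 74 in WT were lower past 1.5-fold in the top band, close to the 33.4% of AD and 26.3% of WT genes that were. Crypt-like cells had 449, 318 and 249 in AD and 498, 449 and 316 in WT over the top 3 bands, with 40 of 58 members in AD and 41 of 73 in WT lower past 1.5-fold, where 28.2% of AD and 21.5% of WT genes were. In AD crypt-like cells this depended on a few deep cells: the log2 ratio of -0.85 was 0.02 without cells over 4 times the class median. In enteroendocrine-like cells the set level ran the other way, with 181 and 205 in AD and 183 and 275 in WT at 0 to 10 and 10 to 25%. Higher past 1.5-fold were 4 of 34 members in AD and 24 of 43 in WT, where 15.8% of AD and 15.5% of WT genes were. The share of members was thus above that of all genes in WT only.

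**Figure D4:**
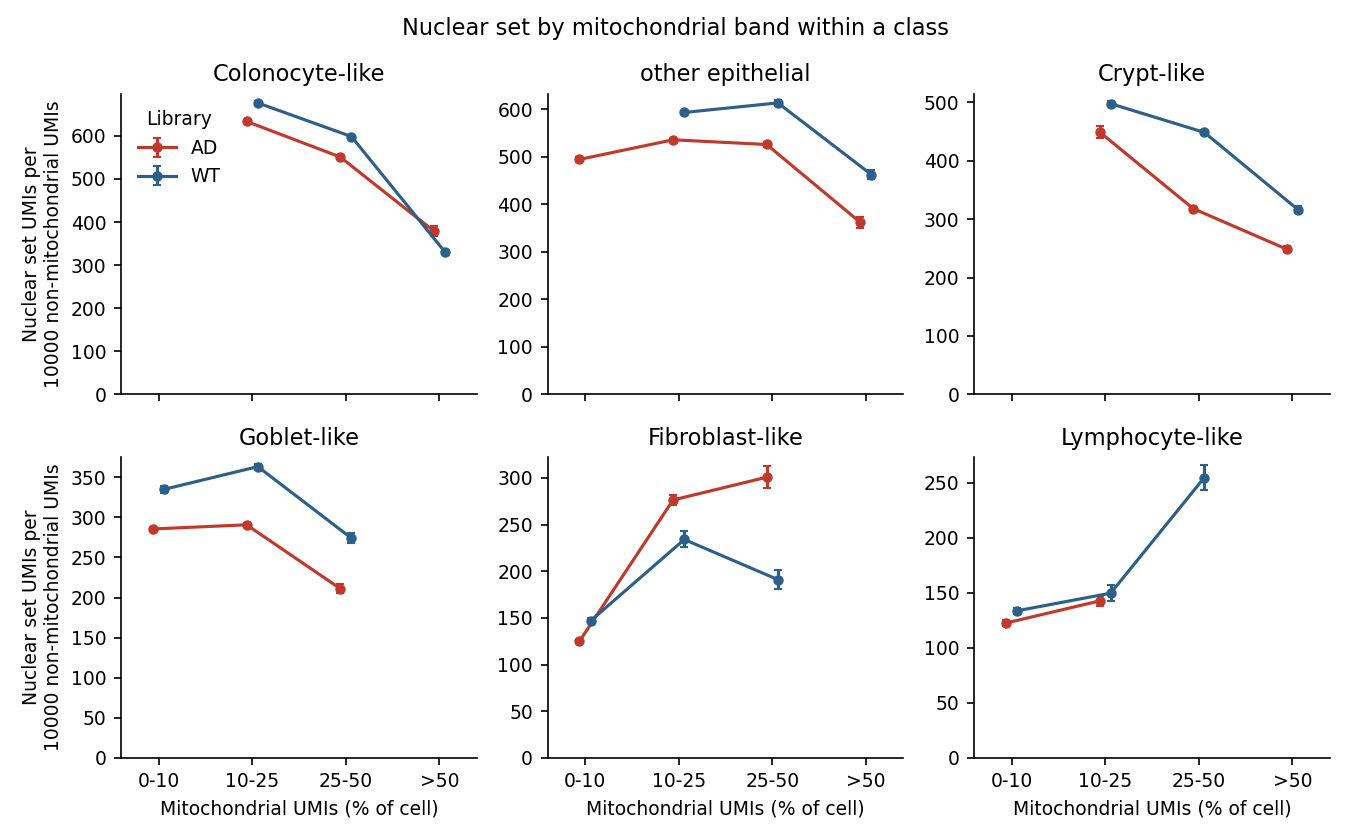
Level of the nuclear set per 10000 non-mitochondrial UMIs by mitochondrial band in 6 cell classes of the AD and WT libraries, with 95% counting intervals. Colonocyte-like and crypt-like cells lie lower in the higher bands, and fibroblast-like cells lie above their lowest band, at 301 in AD and 191 in WT at 25 to 50%, with WT at 234 at 10 to 25%.

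Single members departed from the set across bands. Ndufa4 in pooled epithelial cells was at 392.1, 309, 182 and 103 CPM in AD and 578, 456, 272 and 135 CPM in WT from the lowest to the highest band. Within classes its log2 ratio of top over bottom band was -1.48 in AD and -0.96 in WT goblet-like cells, -1.94 in AD and -1.48 in WT crypt-like cells, and -1.07 in AD and -0.99 in WT other epithelial cells, and its level in colonocyte-like cells was 227 and 109 CPM in the lowest and highest filled band of AD and 389 and 105 CPM in those of WT. Cox8a was likewise lower in the top band of goblet-like, colonocyte-like, crypt-like and other epithelial cells of both libraries, at -1.69 in AD and -1.23 in WT colonocyte-like cells. Atp5d, the delta subunit of the ATP synthase stalk, was at 430.2, 709.8, 1044 and 1065 CPM in AD and at 518, 815, 1235 and 1064 CPM in WT, and its ratio was above 0 within each of the same classes, with 0.80 in AD and 0.67 in WT goblet-like cells and 0.30 in AD and 0.13 in WT colonocyte-like cells. Sdhb, the iron-sulphur subunit of complex II, was above 0 over pooled bands but at -0.26 in AD and -0.78 in WT colonocyte-like cells. The pooled bands hold the classes in different shares.

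Fibroblast-like cells had 125, 276 and 301 per 10000 in AD and 147, 234 and 191 in WT at 0 to 10, 10 to 25 and 25 to 50%. Of the members tested 57 of 67 in AD and 18 of 52 in WT were higher past 1.5-fold in the top band, where 18.8% of AD and 12.1% of WT genes were. With all UMIs as the denominator the WT log2 ratio of top over bottom band was -0.08 in place of 0.38. Markers of epithelium moved with them. The summed level of 11 epithelial markers, of which 10 were detected and Tspan8 was at 0, was 4.50, 65.3 and 93.9 per 10000 in AD and 3.49, 37.3 and 36.3 in WT, against 76.8 to 269 over goblet-like and colonocyte-like cells of AD at up to 25%. Lymphocyte-like cells had 122 and 142 in AD over the 2 lower bands, with markers at 4.37 and 20.7, and 134, 150 and 255 in WT, with markers at 3.98, 14.3 and 62.1. In the top band 5 of 45 members in AD and 28 of 39 in WT were higher past 1.5-fold, where 4.84% of AD and 9.81% of WT genes were. Plasma-like cells of AD had 128, 217 and 175, with markers at 4.72, 45.5 and 44.7, and 28 of 72 members were higher past 1.5-fold in the top band, where 38.2% of genes were. Macrophage and monocyte-like cells had 112, 217 and 171 in AD, with markers at 3.11, 42.6 and 67.0, and 146, 134 and 123 in WT, with markers at 1.84, 14.8 and 17.2. The part of epithelial RNA in these differences was not tested.

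The 13 mitochondrial genes are described by each gene's share of their summed UMIs, which compares their make-up and not their total. In epithelial cells at up to 25% mt-Co1 held 25.1% in AD and 22.5% in WT, mt-Atp6 19.1% in AD and 20.5% in WT, mt-Co3 16.1% in AD and 16.4% in WT, and mt-Co2 11.1% in AD and 12.2% in WT. mt-Cytb, the one complex III gene among them, held 7.03% in AD and 7.06% in WT. The complex I genes mt-Nd4, mt-Nd1, mt-Nd2, mt-Nd3 and mt-Nd5 held 6.89, 5.41, 3.41, 2.08 and 1.01% in AD and 6.73, 5.84, 3.22, 1.96 and 1.03% in WT. mt-Atp8 held 0.571% in AD and 0.631% in WT, and mt-Nd4l 0.378% in AD and 0.409% in WT. Both overlap a neighbouring gene (mt-Atp8 with mt-Atp6, mt-Nd4l with mt-Nd4), so their counts depend on how reads were shared.

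In epithelial cells at up to 25% the gene furthest off was mt-Nd6, the only member on the light strand, with 1.87% in AD and 1.47% in WT, a log2 ratio of 0.35. The others lay between -0.14 and 0.16. At up to 25% mt-Nd6 was at 2.19% in AD and 1.62% in WT goblet-like cells, 2.40% in AD and 1.61% in WT enteroendocrine-like cells, 1.70% in AD and 1.20% in WT crypt-like cells, 1.66% in AD and 1.42% in WT colonocyte-like cells, and 1.83% in AD and 1.54% in WT other epithelial cells. In tuft-like cells at 25 to 50% it was at 2.02% in AD and 2.12% in WT, and in macrophage and monocyte-like cells at up to 25% at 1.72% in AD and 1.69% in WT, with overlapping intervals in both. Over alternative settings the log2 ratio of mt-Nd6 in epithelial cells lay between 0.18 and 0.49. At 0 to 10% it was not the furthest off, at 0.18 beside 0.18 for mt-Nd2 and 0.21 for mt-Nd5. In enteroendocrine-like cells at up to 25% mt-Atp8 was further off, at -0.77 against 0.58 for mt-Nd6. In epithelial cells over 50% further genes differed: mt-Nd2 held 3.71% in AD and 2.41% in WT (0.62), mt-Cytb 7.71% in AD and 5.94% in WT, and mt-Co3 16.5% in AD and 20.6% in WT (-0.32). Within colonocyte-like cells over 50% mt-Nd2 was at 2.54% in AD and 1.93% in WT (0.39), a smaller log2 ratio than over the pooled classes.

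**Figure D5:**
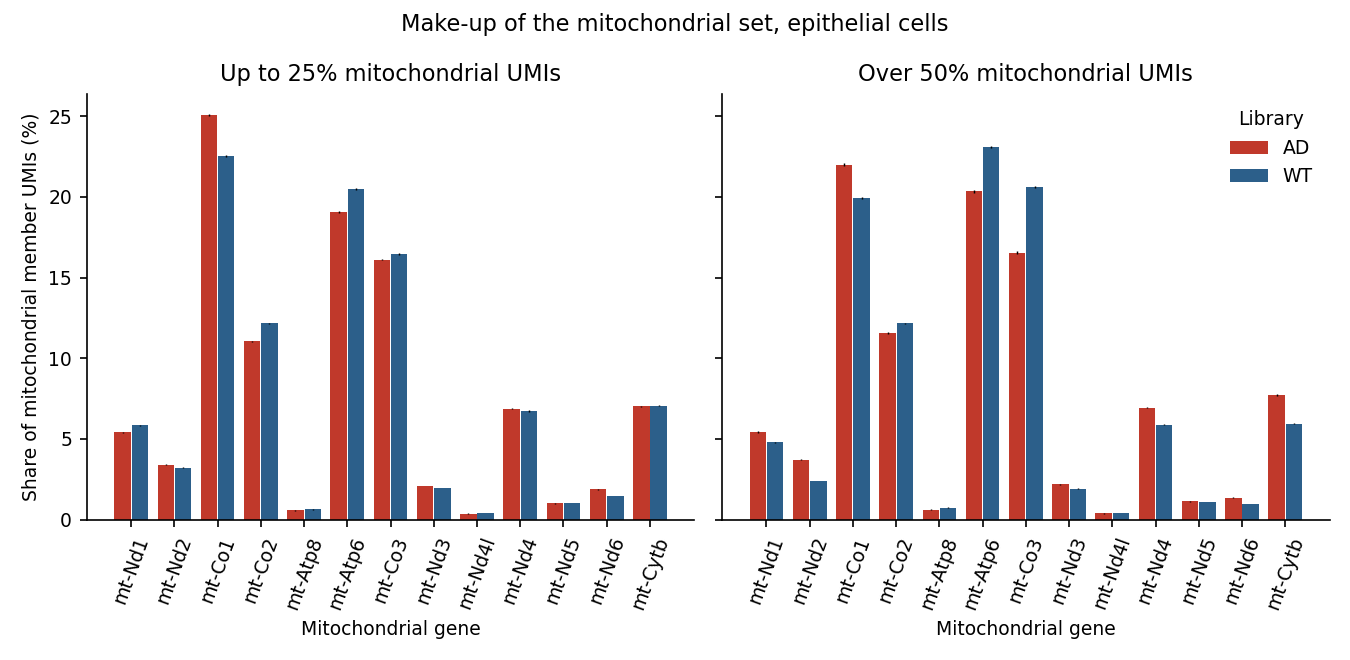
Share of each of the 13 mitochondrial genes among mitochondrial member UMIs (percent) in epithelial cells of AD and WT, at up to 25% (left) and over 50% (right), with 95% counting intervals. At up to 25% mt-Co1 is at 25.1% in AD and 22.5% in WT, and over 50% mt-Co3 is at 16.5% in AD and 20.6% in WT.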

How the data were processed

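Single-cell RNA sequencing libraries of mouse colon (10x Genomics), 1 AD and 1 WT, were measured. What the authors deposited are UMI counts, not normalized, for every gene in every barcode, made with Cell Ranger 3.0.1 and STAR on mm10 and followed by Seurat 3.0.2, per the submitters' processing notes; whether intronic reads or the strand were used is not given in the sources used here. The smallest barcode total was 500 UMIs in each library. Cells were clustered with scanpy 1.11.5 (log counts scaled to 10000, 2000 variable genes, 30 principal components, 15 neighbours, Leiden resolution 1) without members, mitochondrial and ribosomal genes. Cluster naming thresholds were set after the clusters were seen. Scrublet removed 0 AD and 5 WT cells (0.124%), so it has not worked and doublets may remain. The 7 barcodes shared by the libraries were kept. UMI counts were summed per library, class and band; ratios add 0.5 counts to each gene, and a gene needed 100 UMIs over both libraries. The ratios and counts were tested on simulated data.

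Levels carry exact Poisson intervals, and ratios conditional binomial intervals. Genes were named by rule: the 5 highest and 5 lowest AD over WT ratios among members with 200 UMIs in epithelial cells, the 2 highest and 2 lowest of each other class, those with the most UMIs per complex, the widest ranges over classes and bands, paralogue groups, and all mitochondrial members; those not printed fall within the counts given. Sdhd, Atp5g1 to Atp5g3 and Cox6a1 are among these. The symbol rule used no measured value, but it, the lists and the tests were set with earlier results of these data known. Overlaps come from the GENCODE M21 annotation, promoters from RefSeq.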

Additional observations from a re-analysis of the deposited data

Results flagged for a closer look

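The nuclear set differed in direction between classes and between libraries in the following cases, and none of these differences was tested. The log2 ratio of AD over WT at up to 25% mitochondrial UMIs was 0.13 in B-like cells and -0.16 in pooled epithelial cells. From the lowest to the highest filled mitochondrial band the log2 ratio was -0.74 in AD and -1.03 in WT colonocyte-like cells, against 1.27 in AD and 0.38 in WT fibroblast-like cells. In the fibroblast-like cells the summed epithelial markers were at 4.50 and 93.9 per 10000 in the lowest and highest filled band of AD and at 3.49 and 36.3 in those of WT, and the WT ratio was -0.08 with all UMIs as denominator. In macrophage and monocyte-like cells it was 0.62 in AD and -0.24 in WT, from 43 AD and 25 WT cells in the upper band, where the same markers were at 67.0 in AD and 17.2 in WT.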

How the results depend on the processing

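No paired analysis was possible because each genotype has 1 library. The log2 ratio of the nuclear set in pooled epithelial cells, -0.16, became -0.13 with all UMIs as denominator, -0.20 without ribosomal protein genes in it, -0.10 with median-of-ratios scaling, -0.20 at a 10% mitochondrial limit, -0.17 with cells clustered at 25% with all genes, -0.046 without cells over 4 times the median of their class, 0.0092 as a mean over cells, and -0.21 as the mean of the class ratios, an alternative chosen after seeing the data. The 4 members lower past 1.5-fold became 2 under median-of-ratios scaling, 1 without the deep cells and 0 at 2-fold, and the 0 members higher became 2 with no minimum of UMIs. The mt-Nd6 ratio of 0.35 was 0.44 as a mean over cells, 0.18 at a 10% and 0.49 at a 50% limit.

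Across the bands of colonocyte-like cells, the log2 ratios of -0.74 in AD and -1.03 in WT became -1.78 and -2.14 with all UMIs, -0.80 and -1.14 without ribosomal genes, -0.89 and -1.25 as a mean over cells, -0.31 and -1.27 with band edges at 5, 15, 30 and 60%, and -0.65 and -0.42 without the cluster of 14 AD and 668 WT cells, again chosen after seeing the data. In WT alone it was -1.02 with at least 1000 UMIs per cell and -1.06 without the deep cells. Direction turned with all UMIs as denominator for the band ratios of WT fibroblast-like (-0.079), AD plasma-like (-0.0092) and WT B-like cells (-0.26), with median-of-ratios scaling for the endothelial-like set (0.0084), as a mean over cells for the colonocyte-like (0.029) and plasma-like sets (0.015) and AD crypt-like bands (0.0099), and without deep cells for AD crypt-like bands (0.019). The cause was not tested. The values given here are those that moved by more than their counting interval, or by over 1.5 times for a count, among the results of the main comparisons; the other results stayed within their counting interval in 187 settings, moved beyond it in 99 and turned in 8. Leaving out the 7 shared barcodes turned no result. Cells of high mitochondrial share had few UMIs, which limits the top bands.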
